A study of Mus musculus with 26 samples.

Results

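RNA of induced pluripotent stem (iPS) cells was compared with RNA of V6.5 embryonic stem (ES) cells on 4 one-colour expression arrays, 2 for each kind of cell, out of 26 samples in the series. The members were chosen by their labels. The other samples are 2 expression arrays of female mouse embryonic fibroblasts (MEF) and 20 promoter arrays for trimethylated lysine 4 (H3K4me3) and lysine 27 (H3K27me3) of histone H3. V6.5 is a mouse ES line that the labels describe as dependent on feeders, the layer of fibroblasts on which such cells are grown. The iPS cells are somatic cells returned to a pluripotent state, and their labels give no strain, sex, donor cell, reprogramming factor or feeder. The second array of each group is labelled a duplicate, with no word on whether cells were cultured or RNA was extracted again, so a p-value here reflects only how far the arrays of a pair lie apart, which may be technical.

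Pluripotent cells are held in their state by a network of transcription factors in which Pou5f1, Sox2 and Nanog are central. Cultures of ES cells are mixed: a small share of cells passes through a state that resembles the 2-cell embryo, with Zscan4 and its companions switched on, and other cells drift toward primitive endoderm, the lineage of the yolk sac. iPS and ES cells are known to be close to each other, and differences between lines have been described at germ line genes, imprinted genes and genes of the cell of origin.

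Signal is given as log2 of the processed intensity minus the 75th percentile of the same array, so that 0 is the level of the 75th percentile and 1 unit is 2-fold. Of the genes tested, 15652 were autosomal. A gene was called when the fitted difference was at least 2-fold and its Benjamini-Hochberg adjusted p in limma, over all 16405 genes tested, was under 0.05. The arrays carried the markers of their labels: 8 of 8 ES and iPS cell markers were well above background on each, with a summed signal of 280 to 396 times the 75th percentile, against 0.743 and 1.93 on the MEF arrays. The iPS arrays resembled each other more closely than the ES arrays did. The median absolute difference between arrays over genes was 0.133 within the iPS pair, 0.498 within the ES pair and 0.512 between the first ES and the first iPS array. The brightest spot lay at 6.62 and 6.79 on the iPS arrays and at 6.98 and 7.89 on the ES arrays, so the brightest genes had less room on the iPS arrays.

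Over all chromosomes, 2903 of 16405 genes were called (17.7%). Of the autosomal genes, 2588 were called, which is 16.5% of those tested. The 1137 that were higher in iPS cells make up 7.26% and the 1451 that were lower make up 9.27%. At least 4-fold calls numbered 336 higher (2.15%) and 357 lower (2.28%). The difference was also read without any model: 886 autosomal genes (5.66%) had each iPS array at least 2-fold above both ES arrays, and 1082 (6.91%) had each at least 2-fold below. The arrays of the groups did not overlap at 10665 genes (68.1%), so absence of overlap alone says little here. The counts depended on the arrays: the fit without either iPS array called 470 to 472 autosomal genes higher and 452 to 591 lower, and the fit without the first ES array called 2167 higher and 3163 lower. In a fit without 1 array, the group left with a single array has no spread of its own and is assumed to vary like the other pair. With the MEF arrays in the same fit, a pair that differed by a median of 0.942, 12 were called higher and 12 lower. The second MEF array had a median signal of 303.994 and 86.623% of probes well above background, against 33.469 and 45.956% on the first. The X and Y chromosomes stood apart, with 41.9% of 626 X-linked genes higher in iPS cells and 4 of 6 Y-linked genes (66.7%) lower, and they are left aside here.

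**Figure D1:**
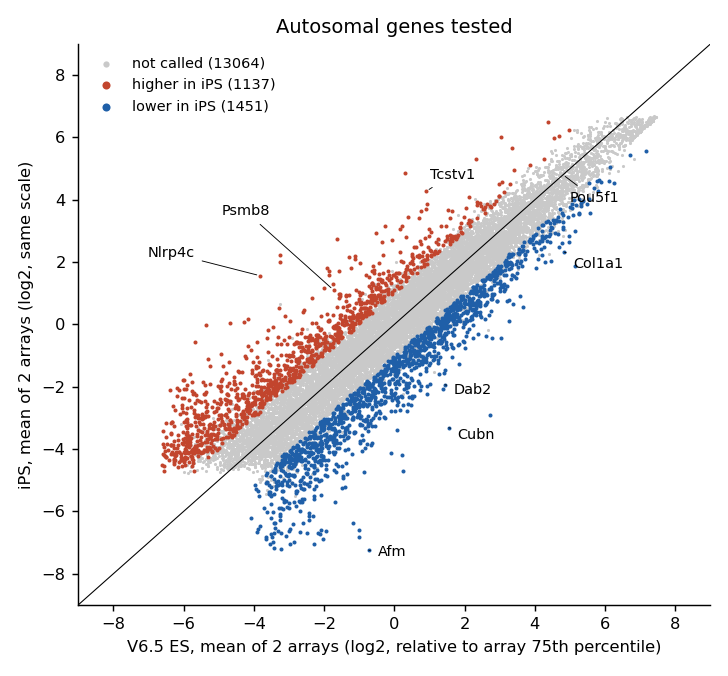
Mean signal of each autosomal gene tested on the 2 iPS arrays (vertical axis) against the 2 V6.5 ES arrays (horizontal axis), both in log2 relative to the array's 75th percentile, with genes called higher in red, called lower in blue and not called in grey. The named points show Nlrp4c, Tcstv1 and Psmb8 above the diagonal, Cubn, Afm, Dab2 and Col1a1 below it, and Pou5f1 on it.

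Of 27 gene lists, the 2-cell-like list had the largest share of members called higher in iPS cells. These genes are transcribed in the embryo when its genome is first switched on, and Zscan4 proteins are also known for telomere maintenance in ES cells. Of 11 members on the array, 10 were tested, and 9 were called higher and 0 lower, with a median difference of 2.95 against -0.057 over all autosomal genes tested. The share of calls over all autosomal genes is 7.26%, as given above. Of the 10, 3 were above background in iPS cells only, so they could pass the filter only by being high there.

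Promoters of 2 members are shown because the list moved together, as the 250 bases before the RefSeq start (build GRCm38.p6). Zscan4c lies at chr7:11005495-11005744 on the plus strand and Zfp352 at chr4:90218570-90218819 on the plus strand. Capitals mark TATAAA, the core of the TATA box, on either strand.
Zscan4c: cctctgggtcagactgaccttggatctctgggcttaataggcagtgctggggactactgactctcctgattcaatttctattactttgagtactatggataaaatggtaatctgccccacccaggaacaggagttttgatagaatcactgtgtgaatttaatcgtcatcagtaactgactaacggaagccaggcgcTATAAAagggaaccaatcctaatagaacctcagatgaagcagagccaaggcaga
Zfp352: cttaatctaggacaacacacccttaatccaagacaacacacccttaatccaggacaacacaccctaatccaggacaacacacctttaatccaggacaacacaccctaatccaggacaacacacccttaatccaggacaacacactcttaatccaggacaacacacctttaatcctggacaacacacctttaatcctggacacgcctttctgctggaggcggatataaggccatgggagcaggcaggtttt
TATAAA stands in 12.4% of the 32851 promoters of the table; Zscan4c holds 1 match and Zfp352 none. These promoters are poor in CG dinucleotides: Zscan4c has 3 and Zfp352 has 2, against a median of 6 per promoter in the table and of 15 among autosomal genes tested.

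Tcstv1, a gene of the 2-cell embryo with close copies on chromosome 13, read 0.52 and 1.28 on the ES arrays and 4.21 and 4.33 on the iPS arrays. Its neighbour and relative Tcstv3 read -0.44 and -0.07 in ES cells and 3.02 and 3.28 in iPS cells. Both genes were high on each iPS array, and the groups lay far apart. The differences were 3.37 ± 0.32 (SE, 10.3-fold, adjusted p = 0.00675) and 3.41 ± 0.26 (10.6-fold, adjusted p = 0.00443). Zscan4c, the member of the Zscan4 cluster on chromosome 7 and a marker of the state, stood at 0.6 and 0.79 against 3.32 and 3.52, a rise of 6.64-fold (adjusted p = 0.00564). Zfp352, a zinc finger gene of the early embryo, stood at -3.37 and -2.55 against 0.13 and 0.12 (8.48-fold, adjusted p = 0.00872). Sp110, a nuclear body protein, was at -2.18 and -1.82 against 1.33 and 1.01 (8.98-fold, adjusted p = 0.00501).

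Usp17la, a deubiquitinase, rose 7.03-fold. Its copy Usp17lc rose at least 5.29-fold from below background. Tdpoz1, a gene of the early embryo, rose at least 2.7-fold, and Arg2, the mitochondrial arginase, at least 3.69-fold. Calcoco2, an autophagy receptor, was the member that did not pass, with 1.43 and 2.16 in ES cells and 1.85 and 1.84 in iPS cells. Each of the 4 fits that left out 1 array called 9 members higher, and the fit with the MEF arrays called 1. Tcstv1, Tcstv3, Usp17la, Usp17lc, Tdpoz1 and Zscan4c belong to families of near-identical copies, so their probes may read more than 1 copy.

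**Figure D2:**
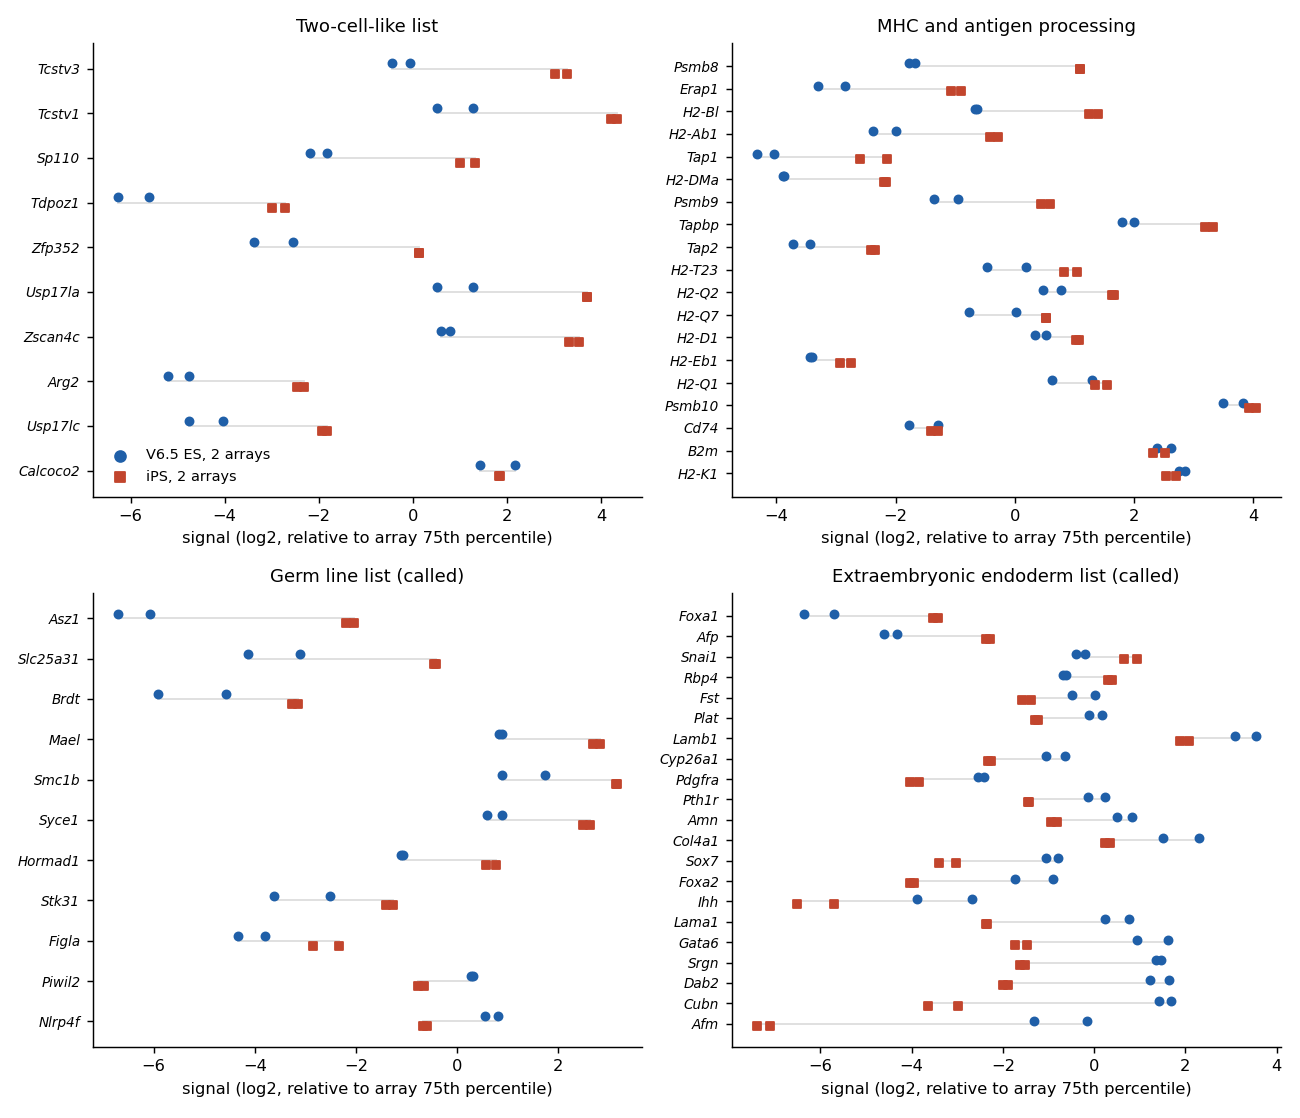
Signal on each of the 4 arrays (horizontal axis, log2 relative to the array's 75th percentile) for the tested members of the 2-cell-like and MHC lists and for the called members of the germ line and extraembryonic endoderm lists, with V6.5 ES arrays as blue circles and iPS arrays as red squares. All 2-cell-like members other than Calcoco2 have both iPS arrays to the right of both ES arrays, while most endoderm genes run the other way.

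The 15 largest higher differences went beyond that list. Nlrp4c, a member of a family of oocyte proteins, read -3.87 and -3.77 in ES cells, with 1 of the arrays above background, and 1.55 and 1.57 in iPS cells, a 41.7-fold difference (adjusted p = 0.00164). Where 1 array of a pair was above background, here and further on, the fold includes a reading that was not. Nlrp14, of the same family and also above background on 1 ES array, rose 10.7-fold (adjusted p = 0.00378). Pramel37, of the Prame family, stood at -0.69 and -0.34 against 2.9 and 2.95 and rose 10.9-fold (adjusted p = 0.00381). Usp17lb, a further deubiquitinase of the Usp17 family, rose 10.3-fold.

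Others among the 15 largest are genes of unrelated roles. Ccdc172, a coiled-coil protein, rose by at least 4.26 units, from below background on both ES arrays to 0.04 and -0.09. Creg2 rose at least 13.3-fold from below background. Aass, which breaks down lysine, rose 13.3-fold (-2.1 and -1.71 against 1.88 and 1.77), and Glrx, the glutaredoxin that reduces protein disulphides, rose 11.9-fold (-1.32 and -2.39 against 1.64 and 1.79). Wfdc15a (-5.61 and -3.72 against 0.04 and 0.03), Wdr95 and Clec10a, a macrophage lectin, were called higher, each with 1 ES array above background. Wdfy4, known in dendritic cells, rose at least 10.1-fold. Of 15 members of the macrophage and blood list on the array, 8 were tested. By limma, 0 of them were called higher and 1 lower (0 and 2 at an unadjusted p under 0.05). Over all autosomal genes, 7.26% were called higher and 9.27% lower, so counts in so short a list say little. Ptprc and Tyrobp, which define blood cells and macrophages, were not well above background on any of the 4 arrays.

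Among genes for antigen presentation, calls went in 1 direction only. Class I molecules of the major histocompatibility complex (MHC) carry peptides that the immunoproteasome cuts and that the Tap transporter brings into the endoplasmic reticulum. Of 21 autosomal members on the array, 19 were tested, with a median difference of 1.08. Of these 19, 10 were called higher and 0 lower, beside 7.26% and 9.27% of all autosomal genes. Above background in only 1 group was 1 of the 19. Fits without 1 array called 3 to 12 of them higher, with 5 without the first iPS array and 3 without the duplicate.

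Of the 19, 15 lie on chromosome 17, where the MHC is, and 9 of the 10 called are among them. Psmb9 and Tap1 are transcribed away from each other from a shared stretch of 225 bases at chr17:34187331-34187555, printed on the plus strand, and Psmb8 has its own start nearby, with its promoter at chr17:34197945-34198194 on the plus strand. Gbp2 (chr3:142620413-142620662, plus strand) and Rsad2 (chr12:26456453-26456702, minus strand) are the genes of the interferon list with the largest differences and are shown for comparison. Capitals mark GAAANNGAAA, the core of the interferon-stimulated response element, on either strand.
Tap1-Psmb9: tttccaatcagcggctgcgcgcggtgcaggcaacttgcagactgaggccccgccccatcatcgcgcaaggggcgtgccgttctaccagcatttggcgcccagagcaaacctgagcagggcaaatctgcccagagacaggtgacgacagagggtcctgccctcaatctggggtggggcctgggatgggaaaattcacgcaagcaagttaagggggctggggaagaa
Psmb8: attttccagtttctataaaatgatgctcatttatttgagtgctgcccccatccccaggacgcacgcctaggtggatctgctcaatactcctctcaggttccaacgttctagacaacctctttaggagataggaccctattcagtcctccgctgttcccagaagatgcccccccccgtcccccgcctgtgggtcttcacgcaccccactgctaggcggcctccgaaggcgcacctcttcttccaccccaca
Gbp2: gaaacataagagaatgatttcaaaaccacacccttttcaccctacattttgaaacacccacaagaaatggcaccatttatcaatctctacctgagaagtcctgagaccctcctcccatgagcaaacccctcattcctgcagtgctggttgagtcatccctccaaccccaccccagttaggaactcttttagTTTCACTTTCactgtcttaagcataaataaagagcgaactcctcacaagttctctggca
Rsad2: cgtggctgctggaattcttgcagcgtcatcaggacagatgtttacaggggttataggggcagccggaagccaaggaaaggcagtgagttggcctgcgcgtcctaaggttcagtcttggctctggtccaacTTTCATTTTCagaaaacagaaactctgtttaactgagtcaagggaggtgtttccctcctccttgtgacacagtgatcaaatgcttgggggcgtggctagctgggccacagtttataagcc
GAAANNGAAA stands in 2.98% of all promoters of the table. The stretch between Psmb9 and Tap1 and the Psmb8 window hold no match, and Gbp2 and Rsad2 each hold 1 match to GAAANNGAAA. Over the lists, GAAANNGAAA was found for 2 of 14 MHC members with a promoter in the table and for 10 of 19 interferon members, against 266 of 10448 autosomal genes tested (2.55%).

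Psmb8, a catalytic subunit of the immunoproteasome, read -1.78 and -1.68 in ES cells and 1.1 and 1.09 in iPS cells, a rise of 2.83 ± 0.23 (7.1-fold, adjusted p = 0.00466). Psmb9, a second such subunit, read -1.36 and -0.96 against 0.44 and 0.59 (3.2-fold, adjusted p = 0.0162). Both lay higher on each iPS array than on either ES array. Tap1, a subunit of the peptide transporter, was below background on both ES arrays and rose at least 3.46-fold. Tap2, its partner, rose 2.31-fold. Tapbp, which holds class I molecules at the transporter, rose 2.57-fold by its brightest probe, with 0.83 by the other. H2-Ab1, a class II chain, stood at -1.99 and -2.38 against -0.42 and -0.29 (3.56-fold, adjusted p = 0.013; 0.79 by another kept probe), and H2-DMa, which loads class II molecules, rose 3.27-fold. The class I-like genes H2-Bl and H2-Q2 rose 3.93-fold and 2.03-fold, although the other kept probe of H2-Q2 differed by 0.86. The other members on the chromosome were not called by their brightest probes. H2-D1, H2-Q1, H2-Q7, H2-T23 and H2-Eb1 differed by 0.49 to 1.08, and H2-K1, a classical class I heavy chain, by -0.19 ± 0.23. Other kept probes reached 0.8 for H2-K1 and 1.56 for H2-Q1. Over all 806 tested genes of chromosome 17, 6.58% were called higher and 11% lower.

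Off chromosome 17, Erap1, which trims peptides in the endoplasmic reticulum, rose 4.27-fold (-2.85 and -3.31, above background on 1 array, against -0.9 and -1.07). B2m, the light chain of class I, differed by -0.09 ± 0.24, the third immunoproteasome subunit, Psmb10, by 0.32 ± 0.25, and Cd74, the class II chaperone, by 0.19, none of them called. H2 genes resemble one another, so their probes may read related copies. MEF arrays read 1.61 and 1.32 for Psmb8 and -0.86 and -1.06 for Psmb9, but 6.29 and 5.23 for B2m.

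The interferon list split in both directions, with 6 of 25 tested members called higher and 4 lower and a median of 0.08. Over all autosomal genes, 7.26% were called higher and 9.27% lower. Of the 25, 3 were above background in only 1 group. Without the first or the duplicate iPS array, 4 and 3 were called higher and 2 were called lower. Gbp2, a guanylate-binding protein, read -0.63 and -1.63 against 2.2 and 2.18 (9.96-fold, adjusted p = 0.00917), and its relative Gbp2b rose 14.2-fold. Rsad2, the antiviral protein viperin, rose at least 6.52-fold from below background in ES cells, and Oasl2 rose 3.98-fold. Ifit3, an interferon-induced protein that binds viral RNA, went the other way, from -1.92 and -1.36 to -3.81 and -4.15 (5.06-fold lower, adjusted p = 0.0111). Irf1, a factor that acts on interferon genes, was at 0 on the difference scale and was not called.

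A part of the germ line and meiosis list was higher in iPS cells. Of 36 tested members, 9 were called higher, beside 7.26% of all autosomal genes, and 2 lower, and the median was 0.57. Of the 36, 5 were above background in only 1 group. Without 1 array the number called higher ranged from 5 to 15, and it was 7 without the first and 5 without the duplicate iPS array. Many genes of this list are known to be silenced in somatic cells by methylation of CG-rich promoters and by E2F6 and Max partners, which bind TCCCGC and CACGTG.

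The promoters of the 4 members with the largest differences are shown with CACGTG and TCCCGC in capitals on either strand. Asz1 lies at chr6:18109062-18109311 (minus strand), Mael at chr1:166238745-166238994 (minus strand), Slc25a31 at chr3:40708621-40708870 (plus strand) and Smc1b at chr15:85131958-85132207 (minus strand), each in the 5′ to 3′ direction of its gene.
Asz1: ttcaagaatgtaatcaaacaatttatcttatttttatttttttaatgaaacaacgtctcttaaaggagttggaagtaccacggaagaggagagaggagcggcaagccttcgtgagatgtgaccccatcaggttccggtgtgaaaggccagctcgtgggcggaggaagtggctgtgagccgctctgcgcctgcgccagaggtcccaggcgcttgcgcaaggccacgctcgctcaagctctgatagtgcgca
Mael: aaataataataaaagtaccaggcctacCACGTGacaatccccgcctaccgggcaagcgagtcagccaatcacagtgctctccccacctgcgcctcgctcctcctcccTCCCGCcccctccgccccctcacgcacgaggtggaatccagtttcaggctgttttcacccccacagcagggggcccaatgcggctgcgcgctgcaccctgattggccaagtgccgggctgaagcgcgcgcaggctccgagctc
Slc25a31: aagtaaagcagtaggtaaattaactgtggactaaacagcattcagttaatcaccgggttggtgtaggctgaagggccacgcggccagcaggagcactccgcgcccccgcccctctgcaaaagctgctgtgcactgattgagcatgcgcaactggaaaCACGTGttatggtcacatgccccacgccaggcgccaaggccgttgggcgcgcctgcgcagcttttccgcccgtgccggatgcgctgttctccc
Smc1b: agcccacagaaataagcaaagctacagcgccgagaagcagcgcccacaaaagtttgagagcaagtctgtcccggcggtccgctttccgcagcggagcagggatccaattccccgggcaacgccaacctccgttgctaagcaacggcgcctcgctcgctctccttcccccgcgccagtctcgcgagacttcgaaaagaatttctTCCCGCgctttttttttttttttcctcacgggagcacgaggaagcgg
CACGTG stands in 6.02% of all promoters of the table and TCCCGC in 16.9%. Mael holds 1 of each, Slc25a31 holds 1 CACGTG, Smc1b holds 1 TCCCGC, and Asz1 holds neither. CG dinucleotides number 15 in Asz1, 18 in Mael, 18 in Slc25a31 and 25 in Smc1b. Over the list, 12 of 31 members with a promoter hold CACGTG (38.7%), against 8.28% of the 10448 autosomal genes tested, and 11 of 31 hold TCCCGC (35.5%), against 29.3%. These shares are of called and uncalled members together.

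Asz1, which acts in the piRNA pathway that silences transposons, was below background in ES cells (-6.71 and -6.07) and read -2.2 and -2.04 in iPS cells, a rise of at least 4.47-fold (adjusted p = 0.00377). Slc25a31, the ADP/ATP carrier of the testis, read -3.11 and -4.13, above background on 1 ES array, against -0.46 and -0.42 (9.08-fold, adjusted p = 0.0101). Mael, a further piRNA gene, rose from 0.9 and 0.84 to 2.83 and 2.69 (3.71-fold, adjusted p = 0.0102). These genes were separated from the ES arrays by more than the spread of either pair. Smc1b, a meiotic cohesin subunit, rose 3.57-fold, with ES values of 0.89 and 1.75 that differed more than the iPS values of 3.16 and 3.15. The call for Smc1b has an adjusted p of 0.0248.

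The largest lower differences held genes of extraembryonic endoderm, the yolk sac lineage that secretes serum proteins and takes up nutrients. Of 37 members on the array, 33 were tested, 17 were called lower and 4 higher, and the median was -1.29. The share of all autosomal genes called lower was 9.27%. Fits without 1 array called 9 to 21 lower, with 10 without the first and 9 without the duplicate iPS array. Above background in only 1 group were 6 of the 33. The 4 called higher, named after their values were seen, were Afp, the fetal serum protein (at least 3.87-fold from below background, adjusted p = 0.00931), Foxa1, an endoderm factor (at least 1.76-fold from below background, adjusted p = 0.00982), Rbp4, a carrier of retinol (1 on the log2 scale, adjusted p = 0.0388), and Snai1, a repressor of epithelial genes (2.13-fold, adjusted p = 0.0394).

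Cubn, the endocytic receptor of the visceral endoderm, read 1.42 and 1.68 in ES cells and -2.99 and -3.64 in iPS cells. Dab2, an adaptor that works with it, read 1.23 and 1.64 against -2 and -1.88. In both genes the ES arrays were high and the iPS arrays low with a gap wider than 3 units. The differences were -4.87 ± 0.31 (29.2-fold lower, adjusted p = 0.00331) and -3.38 ± 0.26 (10.4-fold lower, adjusted p = 0.00443). Afm, a vitamin E-binding serum protein, fell from -1.31 and -0.15 to below background, at least 17.2-fold (adjusted p = 0.00332). Srgn, a proteoglycan of secretory granules, fell 7.86-fold (1.36 and 1.46 against -1.51 and -1.62).

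The marker list for primitive or visceral endoderm gave 6 of 7 tested members lower and 0 higher. Its summed signal was 9.47 and 12.6 times the 75th percentile on the ES arrays and 1.76 and 1.62 on the iPS arrays. Gata4, a defining factor of the lineage, was not well above background on any of the 4 arrays, and the other marker that did not pass, Sox17, differed by -0.11 (adjusted p = 0.741), while its other kept probe differed by -1.48. Dab2 is also high in fibroblasts, with 2.81 and 2.04 on the MEF arrays, whereas Cubn read -2.76 and -1.94 there. In whole cultures, fewer cells of a type and less RNA per cell cannot be told apart.

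Fibroblast genes were also lower in iPS cells. Of 43 members of the fibroblast and feeder list on the array, 40 were tested, with a median of -1.19. Of these 40, 20 were called lower and 1 higher, beside 9.27% and 7.26% of all autosomal genes. Of 16 tested myofibroblast and smooth muscle genes, 8 were called lower and 0 higher, and 3 and 2 were lower without the first or the duplicate iPS array. Without 1 array, 5 to 22 members of the first list were called lower, the low end without the duplicate iPS array (5) and the first one (6).

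Col1a1, a chain of type I collagen, read 4.83 and 4.84 in ES cells, 2.46 and 2.18 in iPS cells and 7.53 and 6.51 in MEF (5.72-fold lower in iPS than in ES cells, adjusted p = 0.00675). Prrx1, a transcription factor of mesenchyme, stood at 0.72 and 1.3 against -1.25 and -1.24 (4.76-fold lower), and Ptn, a secreted growth factor, at -1.57 and -0.24 against -3.28 and -3.83 (6.26-fold lower, adjusted p = 0.0242). The order ES above iPS was the same in these 3 genes, and MEF stood above both. Postn, a matrix protein, fell 3.74-fold and Acta2, smooth muscle actin, 5.31-fold, although another probe of Acta2 differed by 0.04. Of 18 tested Hox genes, 4 were called lower and 1 higher, beside 9.27% and 7.26% of all autosomal genes. Above background in only 1 group were 4 of the 18. Hoxc6 was called lower (7.56-fold, above background on 1 iPS array) and read 3.5 and 2.22 in MEF, and Hoxa11 fell to below background in iPS cells, at least 5.25-fold.

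The 12 markers of fibroblasts, 11 of which were tested, had a summed signal of 68.3 and 88.8 on the ES arrays, 22.5 and 19.8 on the iPS arrays and 1480 and 726 on the MEF arrays. Of the 11, 9 were called lower and 0 higher, and 5 and 4 without the first or the duplicate iPS array. Lum, one of the 12, was not well above background on any ES or iPS array. The part that fibroblasts in the cultures have in the other differences was not tested.

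**Figure D3:**
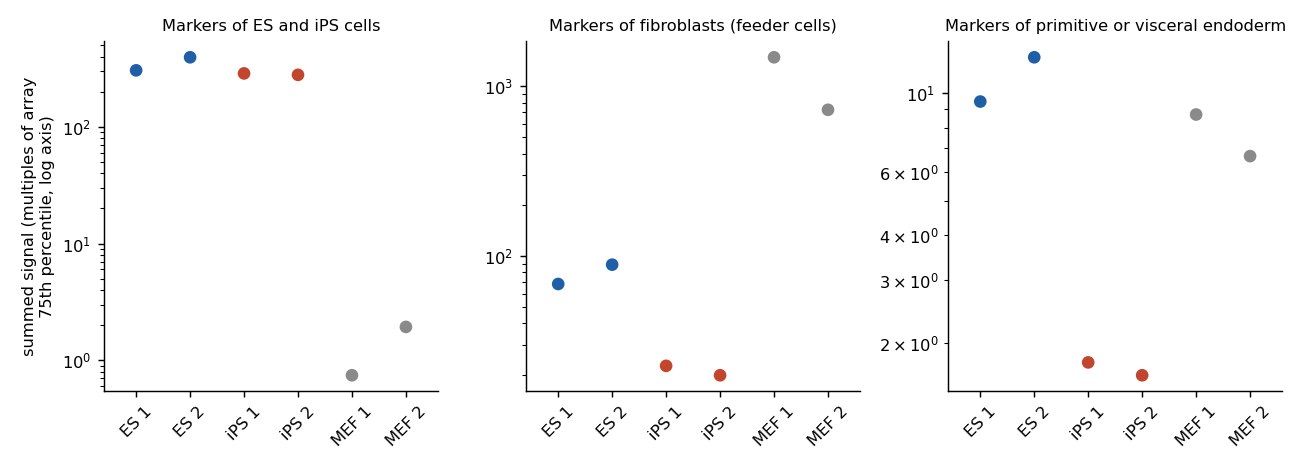
Summed signal of the markers of ES and iPS cells, of fibroblasts and of primitive or visceral endoderm on each of the 6 expression arrays, in multiples of the array's 75th percentile on a log axis. Pluripotency markers sum to 280 to 396 on the 4 ES and iPS arrays, while the fibroblast and endoderm markers are lower on both iPS arrays (at most 22.5 and 1.76) than on both ES arrays (at least 68.3 and 9.47).

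The remaining large decreases were of diverse genes. Aqp8, a water channel, read -0.21 and 0.66 against -4.36 and -4.04 (21.5-fold lower, adjusted p = 0.00466). Ubd, a ubiquitin-like modifier, Trim12a, a Trim family protein, and Nkx6-3, a homeobox factor, were each below background in iPS cells and at least 14.2-fold lower. Pot1b, a protein that binds telomere ends, fell 10.6-fold, with 1 iPS array above background. Aldh1a3, which makes retinoic acid, fell 8.92-fold, Prdm16, a transcriptional regulator, 9.05-fold, Tgm1, a transglutaminase, 8.64-fold, and Ntn1, a guidance cue, at least 8.76-fold. B4galnt4 and Kirrel2 fell 8.86-fold and 8.8-fold, the latter by its brightest probe, with -1.12 by the other. Rrp7a, a ribosome assembly factor, fell 9.44-fold by its brightest probe (2.78 and 2.8 against -0.39 and -0.51), but its other kept probe differed by 0.28, so the call rests on 1 probe.

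**Figure D4:**
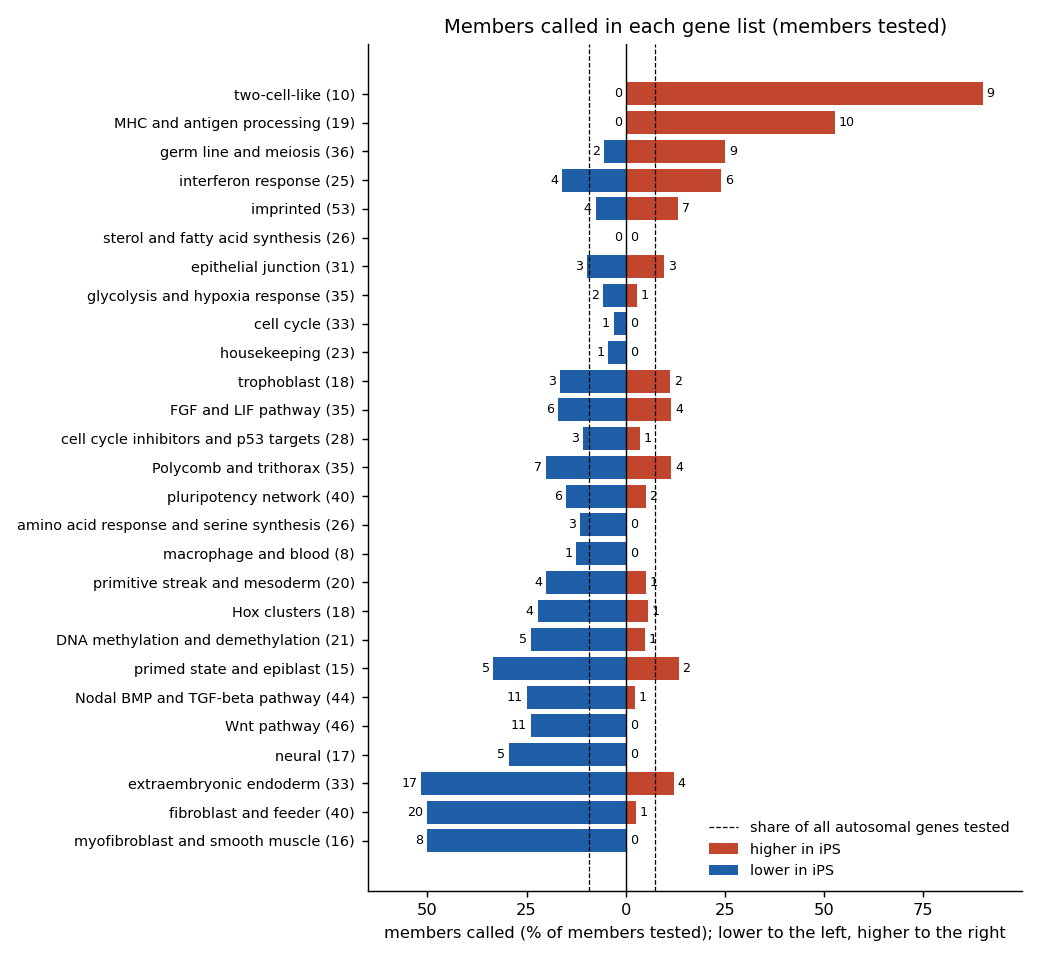
Share of the tested members of each of 27 gene lists that was called higher (red, to the right) or lower (blue, to the left) in iPS cells, in percent, with the number called beside each bar, the number tested in parentheses and dashed lines at the share of all autosomal genes tested (7.26% higher and 9.27% lower). The 2-cell-like list (9 of 10 higher) and the MHC list (10 of 19 higher) reach farthest to the right, and the endoderm (17 of 33 lower) and fibroblast (20 of 40 lower) lists farthest to the left along with the myofibroblast list.

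The core of the pluripotency network differed little. Pou5f1 read 4.93 and 4.62 in ES cells and 4.85 and 4.79 in iPS cells, a difference of 0.04 ± 0.24. Nanog read 3.79 and 2.97 against 3.27 and 3.23 (-0.12 ± 0.34), and Sox2 4.06 and 3.84 against 3.32 and 3.11 (-0.74 ± 0.24, adjusted p = 0.0914). For Pou5f1 and Nanog the groups overlapped, and for Sox2 both iPS arrays were lower without passing the test. Klf4, a further pluripotency factor, was saturated on both ES arrays and on the first iPS array. The second iPS array has no saturation flag of its own and took that of the first. The Klf4 readings of 6.53, 7.4, 6.15 and 6.18 therefore give no difference. Myc, a factor of growth, was called lower, with 1.13 and 1.73 against -0.09 and -0.45 (3.25-fold, adjusted p = 0.0231).

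Of 40 tested members of the pluripotency list, 2 were called higher and 6 lower, with a median of -0.27. Over all autosomal genes, 7.26% were called higher and 9.27% lower. Of the 8 ES and iPS cell markers, 0 were called higher and 1 lower. That marker was Esrrb, which differed by -1.01 by its brightest probe and by -1.55 by the other kept probe. Gbx2, a target of LIF signalling, read 1.42 and 0.95 against -0.9 and -1.1 (4.55-fold lower, adjusted p = 0.0106). Foxd3, a repressor in pluripotent cells, stood at 0.5 and 1.1 against -1.12 and -1.45 (4.24-fold lower, adjusted p = 0.0141). Jarid2, a partner of Polycomb complex 2, fell 2.81-fold. Tbx3 was 4.68 and 6.14 in ES cells and 4.19 and 3.76 in iPS cells, with an adjusted p of 0.108. Without the first or the duplicate iPS array, 2 of the list were called lower, and without the first ES array 12.

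In the Wnt list, 11 of 46 tested members were called lower, beside 9.27% of all autosomal genes, and 0 higher (median -0.06, against -0.057 over all autosomal genes), and fits without 1 array called 5 to 17 lower, with 6 and 5 without the first and the duplicate iPS array. Wnt3a, a ligand of the primitive streak, fell from -2.41 and -1.62 to below background, at least 7.04-fold (adjusted p = 0.00352), and the ligand Wnt2 fell at least 4.58-fold. The receptors Fzd5 and Fzd9 fell 4.36-fold and 3.65-fold, although another kept probe of Fzd5 differed by -0.7. Lef1, which carries the Wnt signal in the nucleus, read 2.05 and 2.12 against 0.82 and 0.48 (2.7-fold lower, adjusted p = 0.0209). Above background in only 1 group were 6 of the 46.

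In the Nodal, BMP and TGF-beta list, 11 of 44 tested members were called lower and 1 higher (median -0.07), and 2 to 14 were lower in fits without 1 array, with 4 and 2 without the first and the duplicate iPS array. Over all autosomal genes, 9.27% were called lower and 7.26% higher. Bmp4, a ligand, stood at 1.42 and 1.19 against -0.45 and -0.72 (3.71-fold lower, adjusted p = 0.0114). Inhbb, a subunit of activin, fell 7.53-fold and the receptor Acvr1b 3.67-fold. Outside this list, Cer1, a secreted Nodal antagonist, fell from -3.61 and -3.22 to below background, at least 2.66-fold, and Dkk1, a Wnt antagonist, fell 3.32-fold. Both are in the primed state and epiblast list, where 5 of 15 tested members were called lower and 2 higher (median -0.79). Inhbb was also high in MEF, at 3.33 and 2.22.

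The FGF and LIF list had 4 of 35 tested members higher and 6 lower (median -0.08), beside 7.26% and 9.27% of all autosomal genes. Without the first or the duplicate iPS array, 2 were higher in each fit and 2 and 1 lower. Fgfr2, a receptor of FGF ligands that is strong in trophoblast and primitive endoderm, rose from -2.57 and -2.73 to -0.26 and -0.32 (5.13-fold, adjusted p = 0.007). Fgfbp1, which releases FGF from the matrix, rose 4.73-fold. Etv4, a transcription factor induced by FGF signalling, read 2.4 and 2.11 against -0.09 and 0.07 (4.8-fold lower, adjusted p = 0.00872), and Spred1, an inhibitor of the pathway, fell 3.34-fold.

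Of 21 tested genes that set or remove DNA methylation, 5 were called lower and 1 higher (median -0.14), beside 9.27% and 7.26% of all autosomal genes. Tet2, which oxidises methylated cytosine, read 0.23 and 0.75 against -2.18 and -2.39 (6.86-fold lower, adjusted p = 0.00756). Zfp57, which keeps the methylation of imprinted regions, read 2.16 and 1.75 against -0.68 and -0.35 (5.53-fold lower, adjusted p = 0.00907). Both were lower on each iPS array than on either ES array. Tet1 and Uhrf1, the latter a guide for maintenance methylation, fell 2.48-fold and 2.46-fold. Without 1 array, 2 to 7 members were called lower, with 2 without either iPS array.

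Among 53 tested imprinted genes, 7 were called higher and 4 lower, beside 7.26% and 9.27% of all autosomal genes. Their median was -0.03, and 4 were above background in only 1 group. Without the first or the duplicate iPS array, 2 were higher in each fit and 3 and 2 lower. Ndn, of the Prader-Willi cluster on chromosome 7, read -2.15 and -2.33 against -0.05 and 0.15 (4.9-fold higher, adjusted p = 0.00794). Magel2 and Mkrn3, members of the same cluster that are named after their values were seen, rose 3.6-fold and 2.88-fold, while Snrpn (1.11), Peg12 (0.51) and Ube3a (-0.23) of that region were not called. Ins2 rose 3.8-fold. Phlda2, a growth restrictor of the placenta, fell from 4.71 and 5.22 to 2.92 and 2.78 (4.31-fold, adjusted p = 0.0113). Rian, a noncoding RNA of the Dlk1 cluster, read 2.95 and -0.68 on the ES arrays and -1.53 on both iPS arrays, so that the ES arrays disagreed by more than 3 units and the difference of -2.66 ± 1.12 did not pass (adjusted p = 0.15).

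Other lists moved little or in both directions. In the neural list, and in the amino acid response list given further on, calls were only lower. Over all autosomal genes, 7.26% were called higher and 9.27% lower. Of 26 tested sterol and fatty acid synthesis genes, 0 were called in either direction by limma (3 higher and 4 lower at an unadjusted p under 0.05), and Cyp51, which makes sterols, was at an adjusted p of 0.0498 with a difference of 0.91. Of 33 cell cycle genes, 0 were called higher and 1 lower, Ccnd2 (2.19-fold). The Polycomb and trithorax list gave 4 of 35 higher, with Bmi1, of Polycomb complex 1, at 3.78-fold with 1 ES array above background, and 7 lower. The fits without either iPS array called 1 higher and 0 lower. Epithelial junction genes split 3 and 3 of 31, with Dsp, desmoplakin, 5.11-fold higher and Esrp2, a splicing regulator, 3.77-fold lower by its brightest probe and at -0.31 by the other. Neural genes were 5 lower and 0 higher of 17, led by Olig2 (6.25-fold). Of 23 housekeeping genes, 1 was called, Actb, with 4.14 and 5.22 against 2.71 and 2.26 (4.56-fold lower, adjusted p = 0.0259), although its other kept probe differed by -0.59.

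By chromosome, chromosome 8 had the largest share of genes called lower, 14.8% of 842, and the lowest median difference, -0.219. Chromosomes 15 and 17 followed in the share called lower with 12.7% and 11%. Chromosome 3 had the largest share called higher, 10.4% of 763, and chromosome 12 the highest median, 0.112. On chromosome 8 the median was -0.154 between the first arrays and -0.387 between the duplicates, against 0.018 and -0.177 over all autosomal genes, so chromosome 8 was the lowest autosome in both comparisons. The differences between chromosomes were not tested.

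**Figure D5:**
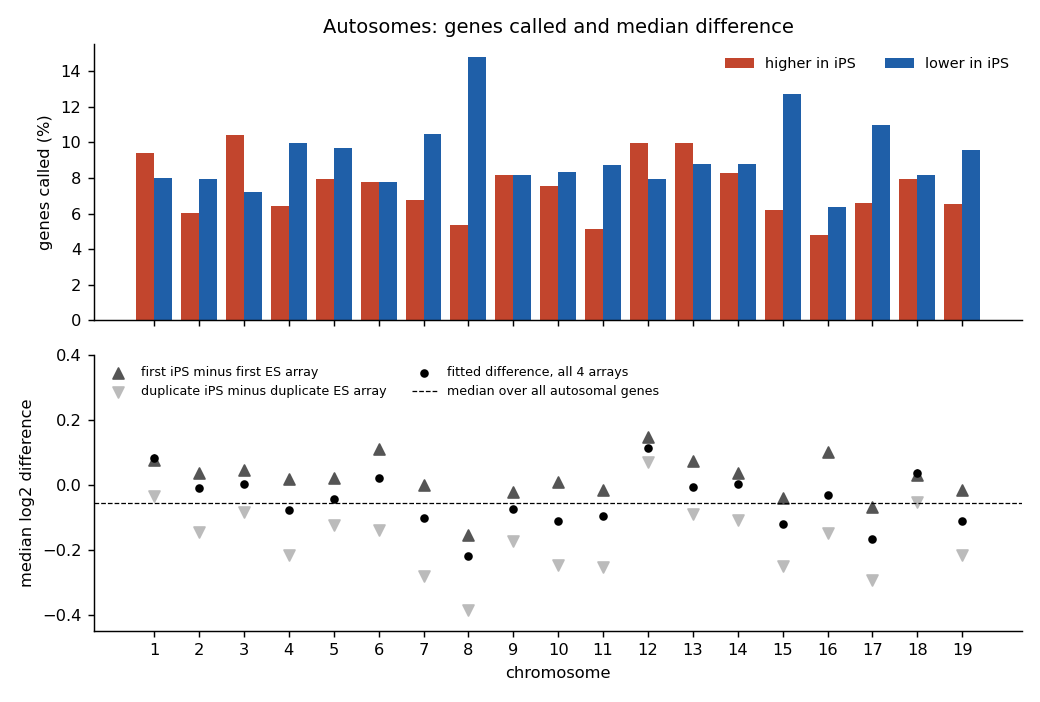
For each autosome, the share of tested genes called higher (red) or lower (blue) in iPS cells in percent (upper panel), and the median log2 difference between the first arrays, between the duplicates and in the fit over all 4 arrays (lower panel), with a dashed line at the median over all autosomal genes (-0.057). Chromosome 8 shows the tallest blue bar (14.8%) and the lowest medians, and chromosome 12 the highest fitted median (0.112).

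Promoter arrays gave an independent reading of the same genes, as the mean log2 of immunoprecipitate over input within 1000 bp of the start, for 1 iPS line, the ES line V6.5 and the ES line E14. With 1 line each, no test was made, and no label says that the iPS cells are the same culture on both kinds of array. Of 10333 promoters of tested autosomal genes, the iPS line lay at least 1 unit above both ES lines in H3K4me3 at 4 (0.0387%) and at least 1 unit below at 1 (0.00968%), and in H3K27me3 at 0 and 0. Of 738 promoters of genes called higher in RNA, 0 passed in either mark or direction. Their median H3K27me3 was 0.32 in the iPS line, 0.25 in E14 and 0.39 in V6.5, so most had little room to fall by 1 unit. The 0 for loss of that mark therefore says little. Of 839 promoters of genes called lower, 3 gained H3K4me3 and 0 passed in any other way. The 3 became 7 within 500 bp, and 34 of the called promoters passed when V6.5 was the only reference. Of these, 27 passed by lower H3K4me3 in the iPS line: 22 of the 839 called lower (2.62%) and 5 of the 738 called higher (0.678%). Of all 10333 promoters, 135 (1.31%) passed in that way, and the median H3K4me3 was 1.55 in V6.5 against 1.22 in the iPS line.

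Those 3 are Col3a1, a collagen chain, Fgf7, a growth factor of mesenchyme, and Rbms3, an RNA-binding protein, named for this count after their values were seen. In H3K4me3, Col3a1 stood at 0.57 in the iPS line, -0.52 in E14 and -0.71 in V6.5, and at 2.47 and 3.46 in the fibroblast lines. Fgf7 stood at 0.67, -0.57 and -0.75, with 2.42 and 3.16 in fibroblasts, and Rbms3 at 1.61, 0.47 and 0.54, with 2.44 and 3.02. All 3 promoters thus carried more of the mark in the iPS line than in either ES line and most in fibroblasts, while the RNA of all 3 was lower in iPS cells. Col3a1 RNA, for example, read 2.21 and 2.65 in ES cells and 0.68 and 0.6 in iPS cells (adjusted p = 0.0141).

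Marks at some of the promoters described above are given for each line. For Psmb8, H3K4me3 was 1.21 in the iPS line, 0.87 in E14 and 0.87 in V6.5, and H3K27me3 was 1.69, 1.08 and 1.78. Mael had H3K27me3 of 0.83, 0.91 and 1.36, and Slc25a31 of 0.99, 0.76 and 1.75. Dab2 held H3K4me3 of 1.95, 1.83 and 1.47, and Wnt3a H3K27me3 of 1.17, 0.86 and 1.27. Tet2, lower in RNA, had H3K4me3 of 2.04 in the iPS line, 2 in E14 and 2.95 in V6.5, and Zfp57 3.04, 2.25 and 2.93. Neither Tet2 nor Zfp57 stood 1 unit away from both ES lines in this mark.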

How the data were processed

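Expression arrays were scanned in 1 colour. Per the file headers, the authors' Agilent Feature Extraction subtracted background and removed spatial trends, and the deposited value table holds this processed signal as linear intensity. Per the file headers and the deposited value tables, promoter arrays hold log10 ratios of immunoprecipitate over input from the deposited two-channel signal. Columns of the value table were used: the scanner files filed under ES equal the MEF columns and the reverse, and the scanner output of the second iPS array is cut short and matches none of the columns. A probe therefore counted as above background on that array where the first iPS array's flag did and its own signal reached the lowest signal well above background on the first array. Its saturation flags were taken from the first iPS array, and its slide is not known. The first ES and iPS arrays share a slide with a MEF array, and the ES duplicate lies on another.

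Each array was scaled to its 75th percentile on the log2 scale, and 24220 of 41174 probes were kept, those well above background on both arrays of ES or of iPS cells. The brightest kept probe represented a gene. The groups were compared with limma 3.58.1 in R 4.3.3 (lmFit and eBayes, 2 residual degrees of freedom, Benjamini-Hochberg over 16405 genes), without the MEF arrays. Where a group was below background on both arrays, the fold is a bound against the lowest signal well above background. A reading of such a group that lay above that level entered as itself, as for Wnt2. Folds given as at least are therefore approximate. In data simulated with the observed spread, 0% of genes changed by 1.5 log2 units were called, 49.3% of those changed by 2.5 and 69.7% of those changed by 4. There was 1 false call among 16405 genes. The simulation changed only 67, 67 and 66 genes by these amounts, a far smaller share than the 17.7% called in the data. The adjusted p depends on that share, so these rates cannot be carried over to the fit. Promoter values are means of at least 3 probes within 1000 bp of the start, after centring each array on its median. Sequences and symbols are from RefSeq (GRCm38.p6), and for counts over lists each gene had 1 promoter, that with the lowest coordinate.

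Named genes were, of the called autosomal genes with a symbol, the 15 with the largest higher and the 15 with the largest lower difference (ranked by the bound where a group was below background or saturated), up to 4 members of each list with the largest difference, all members of a list in a chromosome region that a result turns on, and Pou5f1, Sox2, Nanog, Klf4 and Myc. Any other name was chosen after its values were seen. The members, lists and rules were chosen with earlier results of these data known. The number of arrays limits the precision. Alternatives were other scalings, filters, probe summaries, variance models and thresholds, a replicate block, all 6 arrays in 1 fit and each array left out.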

Additional observations from a re-analysis of the deposited data

How the results depend on the processing

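Scaling by quantiles or by the array median, the mean over probes and an intensity trend kept the 3 counts of called genes within 1.5 times. Over all genes, 45 of 2903 calls were left with all 6 arrays in 1 fit and 420 at an adjusted p under 0.01. For autosomal genes these settings gave 12 and 162 higher and 12 and 160 lower. Autosomal genes called higher numbered 756 without a filter on dim probes, where 26304 genes were tested, and 660 where probes had to be above background on all 4 arrays, which removes genes absent from 1 group. In the latter setting 33.9% of calls were higher, against 43.9%. Leaving out 1 array gave 1098 to 5727 calls over all genes, 470 to 2167 autosomal genes higher and 452 to 3163 lower, the low ends without an iPS array and the high ends without the first ES array. Of those left-out fits, the one without the duplicate iPS array kept 858 of the 2588 autosomal calls. The labels set a duplicate apart from a first array but do not pair arrays across the groups. Deviations of the first ES and the first iPS array from their group means correlated at -0.135 over genes. That value alone cannot settle whether the arrays form pairs. With first and duplicate arrays as a replicate block, 3988 genes were called (1667 autosomal genes higher and 1965 lower). With the crossed pairing, tried after seeing the data, 1728 autosomal genes were called higher and 2048 lower.

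Of 112 called genes among the 134 named, 27 and 36 lost the call without the first or the duplicate iPS array, 1 without the ES duplicate, 102 with all 6 arrays, 14 without the filter, 5 with the mean over probes and 1 with quantiles. Directions turned for 2 uncalled genes: Pou5f1 was -0.11 without the ES duplicate and 0.19 without the first ES array, and Nanog -0.53 and 0.29. Counts in the lists without 1 array were added after seeing the data. Promoters of called genes past 1 unit numbered 7 within 500 bp and 34 against V6.5 alone, instead of 3. The causes of these shifts were not tested. Saturation and background bound the brightest and dimmest genes.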

Other observations

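The truncated scanner output given for the second iPS array equals no column of the value table, while each of the other 5 scanner files equals 1 column at 100% of its spots. No value from the truncated file was used.

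Among named genes, 49 of 134 had more than 1 kept probe. For 4 called genes the probes differed in sign: Acta2 (-2.81 to 0.04), Rrp7a (-3.24 to 0.28), Trp53 (-1.6 to 0.2) and Pfkfb3 (-0.04 to 1.42). For Zscan4c (2.73 to 3.72), Tcstv1 (3.37 to 3.65) and Psmb8 (2.83 to 2.9) the kept probes gave the same direction. For other called genes the probes had 1 sign but the smallest difference was under 2-fold, among them Ncam1 (-0.01), Esrp2 (-0.31), Pdk1 (-0.38), Mdm2 (0.43), Actb (-0.59), Fzd5 (-0.7), H2-Ab1 (0.79), Kdm5b (-0.82) and Uhrf1 (-0.99).

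Genes of amino acid response and serine synthesis were negative at 20 of 26 tested members (median -0.35, against -0.057 over all autosomal genes). Of the 26, 3 were called lower and 0 higher, beside 9.27% and 7.26% of all autosomal genes. Chac1, a glutathione-degrading enzyme, was 2.9-fold lower, Slc7a5, a leucine transporter, 2.48-fold lower and Mthfd2, a mitochondrial folate enzyme, 2.43-fold lower. In the list of cell cycle inhibitors and p53 targets, 1 of 28 tested members was called higher and 3 lower (median 0.21). These shares are of the order of those over all autosomal genes. Trp53 itself was called 3.04-fold lower by its brightest probe. Cdkn1b, an inhibitor of cyclin-dependent kinases, was 2.59-fold lower and Mdm2, which degrades p53, 2.5-fold higher. In the glycolysis list, 1 of 35 tested members was called higher and 2 lower: Pfkfb3, which makes an activator of phosphofructokinase, was 2.68-fold higher by its brightest probe, Pdk1, a brake on pyruvate oxidation, was 2.84-fold lower and Hk2, a hexokinase, 2.37-fold lower. In the trophoblast list, 2 of 18 tested members were called higher and 3 lower (median 0.45). Gata3, a trophoblast factor, was 2.67-fold higher, with 1 ES array above background, and Tead4, another, 2.7-fold lower.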
